A study of Mus musculus with 4 samples.

Results

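The genes of the cyclin D and retinoblastoma module were examined in mature mouse regulatory T (Treg) cells after deletion of the Foxp3 gene. The module was taken as 10 genes by name, the D-type cyclins Ccnd1, Ccnd2 and Ccnd3, the kinases Cdk4 and Cdk6, the inhibitors Cdkn1a, Cdkn1b, Cdkn2c and Cdkn2d, and Rb1. All probe sets that the platform annotation gives to exactly 1 of these symbols were used, 27 of 34945 probe sets with 1 gene symbol and 10 of 18193 genes. Foxp3delta cells (2 arrays) were CD4+ YFP+ Ly5.2+ T cells with a loxP-flanked Foxp3 gene, treated with HR-MMPCreGFP, a construct that supplies Cre recombinase, and isolated 6 weeks after adoptive transfer. Foxp3+ cells (2 arrays) carried the same surface markers, had the same Cre treatment and the same 6 weeks of transfer, and kept a wild-type Foxp3 gene. YFP reported that a cell had been exposed to Cre in both groups. The labels do not say whether the arrays of a group came from separate animals, so the spread behind each p-value is that between these arrays and may be technical only.

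D-type cyclins are made in response to antigen receptor and cytokine signals and bind CDK4 or CDK6. The active kinases phosphorylate the retinoblastoma protein, which then releases E2F factors that switch on genes for DNA replication. INK4 proteins, among them those encoded by Cdkn2c and Cdkn2d, bind CDK4 and CDK6 directly, whereas the CIP/KIP proteins encoded by Cdkn1a and Cdkn1b inhibit mainly CDK2 complexes. In T cells this module sets the decision to leave quiescence, and cyclin D2, cyclin D3 and CDK6 are the usual members in lymphocytes.

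Values are GCRMA intensities of the authors on the log2 scale, where a difference of 1 is a doubling, and differences are Foxp3delta minus Foxp3+. Foxp3 read 8.77 and 8.75 in Foxp3delta cells against 11.40 and 11.23 in Foxp3+ cells, a difference of -2.55 (SE 0.27, adjusted p = 0.106 in limma). Foxp3 signal was thus lower in Foxp3delta cells but not absent. The 5 Treg markers, Foxp3 among them, had a summed intensity of 2731 and 4674 in Foxp3delta cells against 17589 and 18828 in Foxp3+ cells. Of the 5 T cell markers measured, all had a mean log2 intensity of at least 4, and both CD8 markers lay below it on all arrays. The Foxp3delta arrays correlated with each other at r = 0.947 and the Foxp3+ arrays at r = 0.934. Arrays of different groups correlated at r = 0.896 to 0.946, so the closest of these pairs was more alike than the Foxp3+ arrays were. These are Pearson's r across the tested probe sets, which are not independent replicates. The 8 myeloid markers, which include Lyz2 and Csf1r, had a summed intensity of 1841 and 618 in Foxp3delta cells against 639 and 516 in Foxp3+ cells, so Foxp3delta replicate 1 stood apart, and the part of this signal in the results below was not tested. Of these 8, Cd14, Itgam and Itgax were below 4 on all 4 arrays. The NK cell markers summed to 212.7 and 64.2 in Foxp3delta cells against 110.3 and 71.0 in Foxp3+ cells, and the B cell markers to 44.3 and 57.8 against 128.8 and 119.1. Klra8 carried most of the NK sum, with Ncr1, Klrc2 and Klre1 below 4 on all arrays, and Cd79b was the one tested B cell marker, with Cd79a, Pax5 and Blnk below 4 on all arrays. In bulk RNA, fewer cells of a type and less RNA per cell cannot be told apart.

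None of the module's genes passed the test, with adjusted p from 0.295 to 0.956. The clearest separation was at 1 of 2 tested probe sets of Cdk6, which was 2.49-fold higher in Foxp3delta cells, and the 3 probe sets of Cdk4 had means 1.49-fold to 1.92-fold higher, the largest at a dim probe set whose Foxp3+ values lay close to 4. Ccnd2 probe sets pointed both ways, Ccnd1 was at the floor, and the 4 inhibitors and Rb1 had differences below 1 on the log2 scale. A probe set was tested when its mean log2 intensity over all 4 arrays was at least 4, which held for 19 of the 27 probe sets and 9 of the 10 genes. At an adjusted p threshold of 0.05 in limma, 0 of the 19 were called, against 0 of all 13999 tested probe sets (0% called). At an unadjusted p under 0.05 there were 4 of 19, all higher in Foxp3delta cells, against a background of 9.56% of all tested probe sets, made up of 5.58% higher and 3.98% lower. These 4 were 2 probe sets of Ccnd2, 1 of Cdk4 and 1 of Cdk6. The count depended on the setting. With 1 probe set per gene it was 0 of 9, beside 859 of all 8629. With same-numbered arrays treated as pairs it was 1 of 19, beside 928 of all 13999. The other alternatives that kept all 4 arrays gave 3 to 5. At least 1 higher with no overlap between the groups were 3 of 19 (background 6.67%), and at least 1 lower with no overlap were 0 of 19 (background 4.44%). At any size of difference, 7 were higher without overlap (background 19%) and 3 lower (background 20.8%). A higher mean was found for 12 probe sets (63.2%, background 50.6%) and a lower one for 7 (36.8%, background 49.4%), with a median difference of 0.33 beside 0.01 over all tested probe sets. With the brightest probe set of each gene alone, 4 genes had a higher and 5 a lower mean, the median was -0.10, and differences ran from -0.59 to 0.72.

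**Figure D1:**
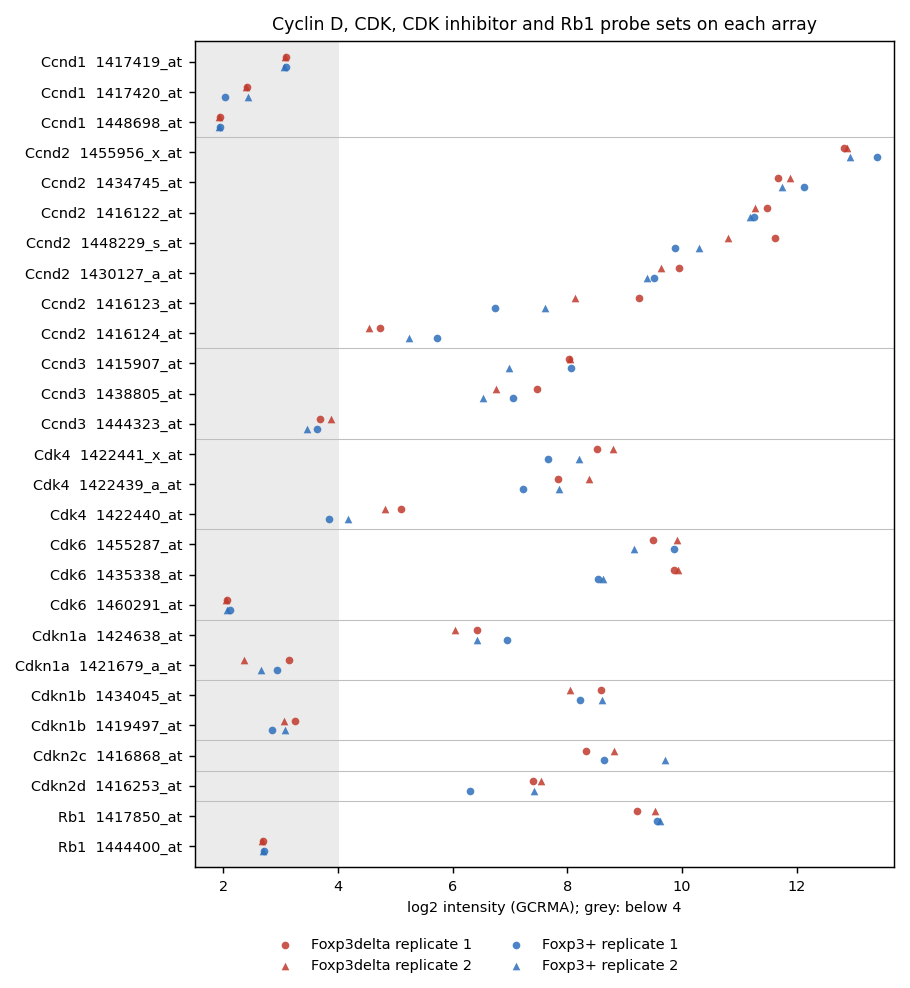
Log2 GCRMA intensity (horizontal axis) of all 27 probe sets of the 10 genes, with Foxp3delta arrays in red above Foxp3+ arrays in blue and the grey band marking values below 4. All 3 Ccnd1 probe sets lie in the band, and Cdk6 1435338_at separates the groups with little spread within either.

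Ccnd1, the D-type cyclin of many non-lymphoid cells, was not above the floor of the arrays. Its 3 probe sets had mean log2 intensities between 1.94 and 3.08 and were not tested. The brightest, 1417419_at, read 3.09 and 3.08 in Foxp3delta cells against 3.09 and 3.07 in Foxp3+ cells. A single probe set each of Ccnd3, Cdk6, Cdkn1a, Cdkn1b and Rb1 also lay below the filter, so that 8 probe sets in all were left out, with values from 1.93 to 3.87 on single arrays. Just outside the filter was Ccnd3 1444323_at, with a mean of 3.66, and just inside it Cdk4 1422440_at, with 4.49.

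Ccnd2, which encodes cyclin D2 and is induced in T cells by mitogens and interleukin-2, had 7 probe sets, all tested, with differences of both signs. The probe set with the largest difference, 1416123_at, read 9.24 and 8.13 in Foxp3delta cells against 6.73 and 7.61 in Foxp3+ cells. The groups did not overlap, though each spread widely, and the difference was 1.51 (SE 0.55, adjusted p = 0.492). Probe set 1448229_s_at read 11.62 and 10.80 in Foxp3delta cells against 9.88 and 10.30 in Foxp3+ cells, again without overlap. Its difference was 1.12 (SE 0.38, adjusted p = 0.456), or 2.17-fold. In the opposite direction, 1416124_at read 4.73 and 4.54 in Foxp3delta cells against 5.73 and 5.24 in Foxp3+ cells, a difference of -0.84 (SE 0.35, adjusted p = 0.55). It was the dimmest Ccnd2 probe set, with a mean of 5.06, and with 16 added to each intensity its difference was -0.57. These 3 probe sets and 1416122_at, whose difference was 0.16, are listed in the platform annotation with the same sequence record.

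The other Ccnd2 probe sets had differences between -0.31 and 0.33, the 3 brightest among them. Probe set 1455956_x_at read 12.83 and 12.87 in Foxp3delta cells against 13.40 and 12.93 in Foxp3+ cells, a difference of -0.31 with an unadjusted 95% interval from -0.88 to 0.25. At 1434745_at the difference was -0.16 (interval -0.78 to 0.47) and the groups overlapped. Probe set 1430127_a_at read 9.95 and 9.63 in Foxp3delta cells against 9.51 and 9.39 in Foxp3+ cells, a difference of 0.33. As single arrays were left out, 1455956_x_at ran from -0.55 to -0.08 and 1434745_at from -0.35 to 0.03. In the same way 1430127_a_at ran from 0.17 to 0.50 and 1416122_at from 0.05 to 0.27. By the platform's naming, the suffix _s_at marks probe sets that match transcripts of several genes and _x_at those with probes that may cross-hybridise. The differences of Ccnd2 spanned 2.35 between its lowest and highest probe set. Among the 157 genes with at least 5 tested probe sets the median span was 1.35, and 10.2% had a span as wide as that of Ccnd2. Both signs occurred within 79.6% of these genes, Ccnd2 among them.

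Without Foxp3delta replicate 1, the Ccnd2 differences at 1416123_at and 1448229_s_at were 0.95 and 0.71, and without Foxp3delta replicate 2 they were 2.07 and 1.53. Both probe sets were highest in Foxp3delta replicate 1, the array with the highest myeloid and NK sums, as were 1416122_at and 1430127_a_at. Ccnd2 1455956_x_at and 1434745_at were lowest on that array. A link of these levels to either sum was not tested. The direction at 1416123_at, 1448229_s_at and 1416124_at stayed the same with any 1 array left out.

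**Figure D2:**
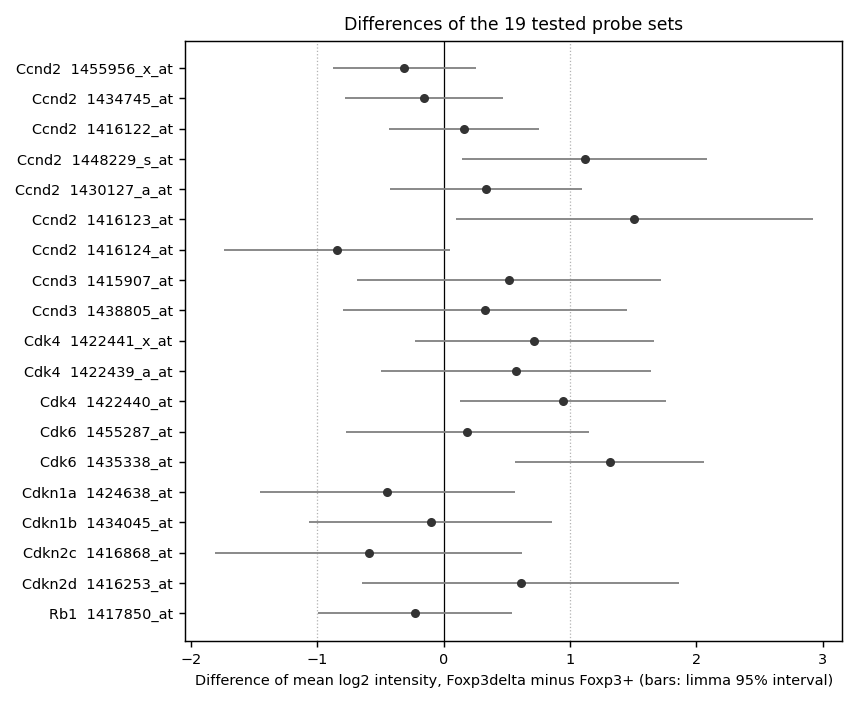
Difference of mean log2 intensity, Foxp3delta minus Foxp3+, for each of the 19 tested probe sets (points, n = 2 arrays per group) with the 95% interval from limma before adjustment (bars) and dotted lines at 1 and -1. The 7 Ccnd2 probe sets spread from -0.84 to 1.51, and 15 of the 19 intervals include 0.

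Ccnd3 encodes cyclin D3, which thymocytes and activated lymphocytes use for division. Its brightest probe set, 1415907_at, read 8.03 and 8.04 in Foxp3delta cells against 8.06 and 6.97 in Foxp3+ cells. Foxp3+ replicate 2 was low and the other 3 arrays were alike, so the difference of 0.52 (interval -0.69 to 1.72, adjusted p = 0.778) rested on that array and was -0.02 without it. The other tested probe set, 1438805_at, read 7.47 and 6.76 in Foxp3delta cells against 7.06 and 6.52 in Foxp3+ cells, with overlapping groups. Its difference of 0.33 was -0.03 without Foxp3delta replicate 1.

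Cdk4 encodes a catalytic partner of the D-type cyclins, and its 3 probe sets, listed with 1 sequence record, all had a higher mean in Foxp3delta cells. The brightest, 1422441_x_at, read 8.51 and 8.80 in Foxp3delta cells against 7.67 and 8.20 in Foxp3+ cells. These values did not overlap, and the difference was 0.72 (SE 0.37, adjusted p = 0.64), or 1.64-fold. Probe set 1422439_a_at read 7.84 and 8.38 in Foxp3delta cells against 7.22 and 7.85 in Foxp3+ cells, and here Foxp3delta replicate 1 lay just under Foxp3+ replicate 2. The dim probe set 1422440_at read 5.10 and 4.81 in Foxp3delta cells against 3.85 and 4.18 in Foxp3+ cells, a difference of 0.94 (SE 0.32, adjusted p = 0.456). The Foxp3+ values of this probe set lay on either side of the filter at 4, and with 16 added to each intensity its difference was 0.55. With any 1 array left out, the Cdk4 differences lay between 0.26 and 1.11. Their span of 0.37 was narrower than the median of 0.77 over the 795 genes with 3 tested probe sets.

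Cdk6, the other catalytic partner of the D-type cyclins and the one that dominates in many T cells, had 2 tested probe sets that differed in result. Probe set 1435338_at read 9.85 and 9.93 in Foxp3delta cells against 8.53 and 8.62 in Foxp3+ cells. Each pair of replicates lay within 0.09 of each other, and the groups stood apart by 1.31 (SE 0.29), or 2.49-fold. Its unadjusted p was 0.00617 and its adjusted p was 0.295, the lowest of the 19 probe sets. Leaving out any 1 array moved this difference only between 1.27 and 1.36. The second probe set, 1455287_at, is listed with the same sequence record, and read 9.49 and 9.90 in Foxp3delta cells against 9.85 and 9.17 in Foxp3+ cells. There the groups overlapped and the difference was 0.19 (interval -0.77 to 1.15, adjusted p = 0.916), with a change of sign when Foxp3delta replicate 2 or Foxp3+ replicate 2 was left out. The 2 differences were 1.13 apart, a gap reached by 11.4% of the 2205 genes with 2 tested probe sets, and the difference between them was not tested. The third Cdk6 probe set, 1460291_at, read between 2.05 and 2.11 on all arrays.

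**Figure D3:**
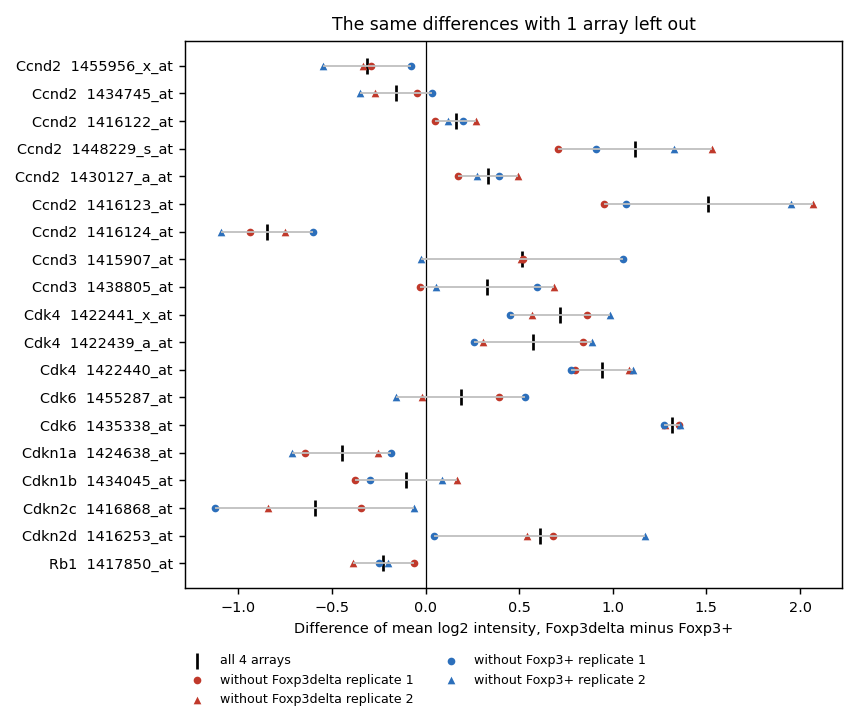
The 19 differences of mean log2 intensity, Foxp3delta minus Foxp3+, with all 4 arrays (black bars) and with each array left out in turn (coloured points). Cdk6 1435338_at stays between 1.27 and 1.36, whereas 5 probe sets of Ccnd2, Ccnd3, Cdk6 and Cdkn1b cross 0.

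The 4 inhibitor genes had 1 tested probe set each, with differences from -0.59 to 0.61 and adjusted p from 0.755 to 0.956. The CIP/KIP gene Cdkn1a encodes p21, a p53 target that is also induced on activation. Probe set 1424638_at read 6.43 and 6.04 in Foxp3delta cells against 6.95 and 6.42 in Foxp3+ cells, a difference of -0.45 (interval -1.46 to 0.56) that was -0.18 without Foxp3+ replicate 1. Foxp3delta replicate 1 and Foxp3+ replicate 2 were almost level, so the groups overlapped. Cdkn1b encodes p27, which keeps resting T cells out of cycle and is lost after stimulation. Probe set 1434045_at read 8.58 and 8.04 in Foxp3delta cells against 8.22 and 8.60 in Foxp3+ cells, a difference of -0.10 (interval -1.07 to 0.86). Both groups held 1 high and 1 low array, and the sign turned when Foxp3delta replicate 2 or Foxp3+ replicate 2 was left out.

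Of the INK4 genes, Cdkn2c encodes p18, a brake on lymphocyte division. It read 8.33 and 8.82 in Foxp3delta cells against 8.63 and 9.70 in Foxp3+ cells, a difference of -0.59 (interval -1.81 to 0.62). Foxp3+ replicate 2 was the high array, and without it the difference was -0.06, against -1.12 without Foxp3+ replicate 1. Cdkn2d, which encodes p19 of the INK4 family, read 7.40 and 7.54 in Foxp3delta cells against 6.29 and 7.42 in Foxp3+ cells, a difference of 0.61 (interval -0.64 to 1.86). Foxp3+ replicate 1 was the low array, and without it the difference was 0.05. Foxp3+ replicates differed from each other by 1.06 for Cdkn2c and 1.13 for Cdkn2d, more than the groups did.

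Rb1, the pocket protein gene on which the cyclin D kinases act, read 9.21 and 9.53 in Foxp3delta cells against 9.57 and 9.62 in Foxp3+ cells at 1417850_at. Both Foxp3delta arrays were the lower ones, by a small margin. The difference was -0.22 (SE 0.30, interval -0.99 to 0.54, adjusted p = 0.854), and it was -0.06 without Foxp3delta replicate 1. The other Rb1 probe set lay at the floor, between 2.67 and 2.71.

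Promoter sequence was held for 7 of the 10 genes, as 10 windows of 250 bases before to 50 bases after an annotated start (RefSeq, GRCm38.p6). The E box CACGTG, a motif bound by Myc and related factors, and the forkhead motif TGTTTAC were searched on both strands. Cdk4 and Cdk6 are shown as the kinase partners of cyclin D that hold an E box, and Ccnd3 because its upstream start had the one forkhead match among the 10 windows, so these 3 were picked after the search. Capitals mark the motif matches, and all 3 windows are on the plus strand.
Cdk4, chr10:127063285-127063584: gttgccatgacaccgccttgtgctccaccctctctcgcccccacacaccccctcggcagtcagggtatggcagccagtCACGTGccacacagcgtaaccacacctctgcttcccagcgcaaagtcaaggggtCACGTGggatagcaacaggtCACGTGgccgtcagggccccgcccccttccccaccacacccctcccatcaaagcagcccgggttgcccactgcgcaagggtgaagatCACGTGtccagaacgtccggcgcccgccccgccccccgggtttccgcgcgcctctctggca
Cdk6, chr5:3343643-3343942: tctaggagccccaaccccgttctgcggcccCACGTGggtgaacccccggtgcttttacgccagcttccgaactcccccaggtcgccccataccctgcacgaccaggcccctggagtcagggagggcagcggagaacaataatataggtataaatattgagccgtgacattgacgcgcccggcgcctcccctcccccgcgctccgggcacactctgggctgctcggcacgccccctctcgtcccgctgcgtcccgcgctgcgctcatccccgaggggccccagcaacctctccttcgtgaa
Ccnd3, chr17:47504801-47505100: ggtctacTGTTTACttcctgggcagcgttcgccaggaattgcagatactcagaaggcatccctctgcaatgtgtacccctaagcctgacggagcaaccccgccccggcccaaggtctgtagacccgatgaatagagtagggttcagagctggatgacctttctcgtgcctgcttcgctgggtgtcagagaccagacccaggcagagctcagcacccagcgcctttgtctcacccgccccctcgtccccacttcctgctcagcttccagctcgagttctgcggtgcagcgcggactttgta

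The Cdk4 window held 4 E boxes and the Cdk6 window 1, and the downstream start of Cdkn2c held 1 as well. The windows of Cdkn1a, Cdkn1b and Cdkn2d, the upstream one of Cdkn2c and the downstream one of Ccnd3 held neither motif. Over all 32851 promoter windows 7.15% held at least 1 E box, and 8 windows held 4 or more. The forkhead motif was in 3.65% of all windows. Myc, which binds E boxes with its partner Max, read 7.41 and 6.72 in Foxp3delta cells against 8.44 and 7.26 in Foxp3+ cells, a difference of -0.79 (SE 0.54, adjusted p = 0.718). The groups overlapped for Myc, and its difference ran from -1.38 to -0.20 as single arrays were left out.

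Further genes of the pathway were described with the brightest probe set of each gene, and 0 passed the threshold in either direction. The reference is all 8629 genes tested, of which 51.9% had a lower mean in Foxp3delta cells, with a median difference of -0.02. In the E2F and pocket protein list 13 of 16 tested genes had a lower mean (median -0.28). E2f7, a repressor of the E2F family, differed by -1.39 (SE 0.75), but by -0.39 without Foxp3delta replicate 1, its lowest array, and by -2.39 without Foxp3delta replicate 2. Lin9 and Lin54, subunits of the DREAM complex, differed by -0.96 (SE 0.37) and -0.93 (SE 0.41). Lin37, another DREAM subunit, differed by 1.35 (SE 0.53), with 6.38 and 6.42 in Foxp3delta cells against 4.38 and 5.72 in Foxp3+ cells. For Lin37 the difference was 0.68 without Foxp3+ replicate 1.

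Of the 10 genes on the cyclin E, CDK2 and CDK-activating list, 8 had a lower mean (median -0.46). Without Foxp3delta replicate 1 the median was -0.17, with 6 of 10 lower. Ccne2, a cyclin that drives CDK2 at the start of S phase, read 5.52 and 4.96 in Foxp3delta cells against 7.05 and 6.32 in Foxp3+ cells. Both Foxp3delta arrays were lower, by -1.44 on average (SE 0.44, adjusted p = 0.417). Skp2, the ubiquitin ligase subunit that marks p27 for destruction, differed by -1.71 (SE 0.80), but by -0.58 without Foxp3+ replicate 1, and its 3 probe sets ran from -1.71 to 1.62. Cks2, a small CDK-binding protein, differed by -0.76 (SE 0.28), and by -0.48 without Foxp3delta replicate 1. The CDK-activating kinase gene Cdk7 differed by -0.97 (SE 0.52), and by -0.50 without Foxp3delta replicate 2 and 0.05 on its other probe set.

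Upstream regulators of cyclin D and p27 split into 8 higher and 8 lower means (median 0.01). Without Foxp3delta replicate 1, 5 of 16 were lower (median 0.08), and without Foxp3delta replicate 2, 12 of 16 (median -0.28). Leaving out Foxp3+ replicate 1 or Foxp3+ replicate 2 gave 9 of 16 lower. Stat5a, a transducer of interleukin-2 signals, was at -1.06 (SE 0.53), and Myc was as given above. Without Foxp3delta replicate 1 Stat5a was at -0.40. The kinase gene Akt1 was at 0.57 (SE 0.56) and the F-box gene Fbxo4 at 0.61 (SE 1.06), but Akt1 was at -0.13 without Foxp3delta replicate 2 and -0.27 on its other probe set, and Fbxo4 at -1.01 without Foxp3+ replicate 1. Of the other CDK inhibitors, Cdkn2b, which encodes the INK4 protein p15, differed by -0.67 (SE 0.33) and the phosphatase gene Cdkn3 by -0.26 (SE 0.83, from -1.40 to 0.87 with single arrays left out), while Cdkn1c and Cdkn2a lay below the filter. The p53 targets beside Cdkn1a had 4 higher and 4 lower means (median -0.18, from -0.47 to -0.12 with single arrays left out). Sesn1, a stress-induced sestrin gene, read 9.00 and 8.32 in Foxp3delta cells against 10.02 and 10.39 in Foxp3+ cells. Its groups did not overlap, the difference was -1.54 (SE 0.37, adjusted p = 0.332), and its 4 probe sets ran from -2.26 to -1.05. Trp53inp1 differed by -0.64, by 0.77 on its other probe set and by -0.25 without Foxp3delta replicate 2. Zmat3 differed by 0.64, and by 0.12 without Foxp3+ replicate 1, and Ccng1 by -0.48, and by -0.26 without Foxp3delta replicate 2 or without Foxp3+ replicate 2.

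The list of E2F target and S phase genes and that of G2 and mitosis genes divided the 2 Foxp3delta arrays from each other. For 18 E2F target and S phase genes, 15 had a lower mean with a median of -0.33, and for 18 G2 and mitosis genes 14 had a lower mean with a median of -0.25. The summed intensity of the S phase list was 15830 and 38817 in Foxp3delta cells against 32431 and 27155 in Foxp3+ cells. That of the mitosis list was 4282 and 15122 in Foxp3delta cells against 8357 and 10172 in Foxp3+ cells, so the Foxp3delta arrays held both the lowest and the highest value. Without Foxp3delta replicate 1 the mitosis median was 0.85 with 1 of 18 genes lower, and without Foxp3delta replicate 2 it was -1.12 with 17 of 18 lower. The S phase median was likewise 0.39 with 5 of 18 lower, and -1.02 with 16 of 18 lower.

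Most tested genes of both lists had their lowest value on Foxp3delta replicate 1. Cdc6, which loads the replicative helicase, read 4.89 and 7.01 in Foxp3delta cells against 7.22 and 6.82 in Foxp3+ cells, a difference of -1.07 (SE 0.75) that was -0.01 without Foxp3delta replicate 1. Plk1, a mitotic kinase gene, read 4.62 and 7.79 in Foxp3delta cells against 7.42 and 6.47 in Foxp3+ cells, a difference of -0.74 (SE 1.09) that was 0.85 without Foxp3delta replicate 1. Cenpf and Aurkb, of the kinetochore and the chromosomal passenger complex, differed by -0.91 (SE 0.56) and -0.74 (SE 0.70), and by -0.20 and 0.22 without Foxp3delta replicate 1. Birc5, which encodes survivin, was lowest on Foxp3+ replicate 1 and differed by 1.30 (SE 0.87), and by 0.36 without that array. The helicase genes Mcm4 and Mcm6 and the ribonucleotide reductase gene Rrm1 differed by -0.71, -0.66 and -0.68, and by -0.25, -0.24 and 0.19 without Foxp3delta replicate 1. The other tested probe sets of Mcm4 and Mcm6 differed by 0.23 and 0.28. Across the 26 genes named from these lists, adjusted p ran from 0.332 to 0.949. Over the 19 tested probe sets of the cyclin D module the gap between the Foxp3delta arrays ran from 0.01 to 1.11 with a median of 0.32, and that between the Foxp3+ arrays from 0.05 to 1.13 with a median of 0.49.

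**Figure D4:**
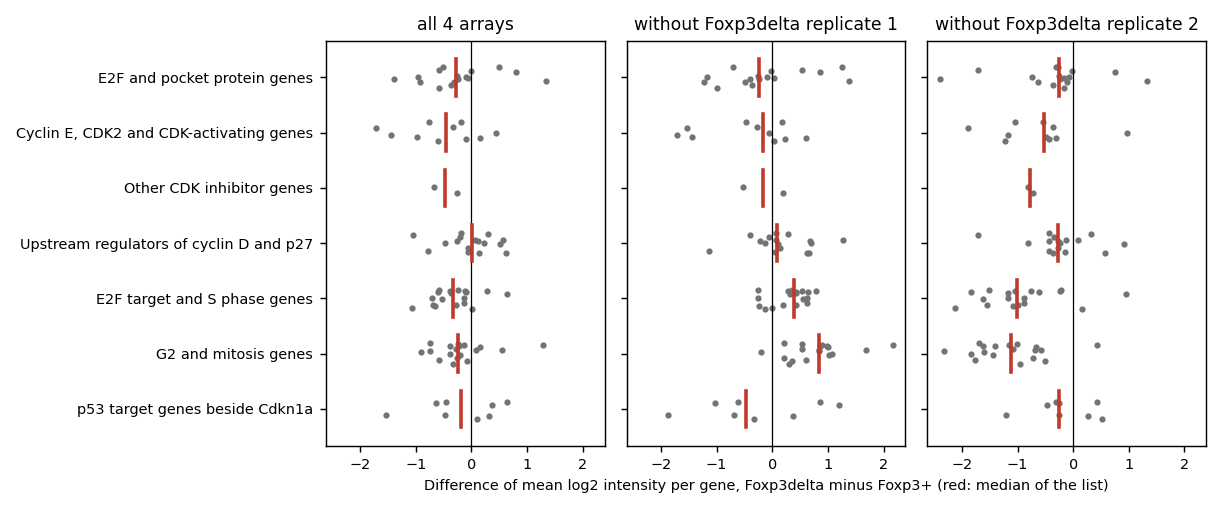
Difference of mean log2 intensity per gene, Foxp3delta minus Foxp3+, for the tested genes of 7 lists (grey points, red bar at the median), with all 4 arrays, without Foxp3delta replicate 1 and without Foxp3delta replicate 2. The medians of the S phase and mitosis lists lie above 0 in the middle panel (0.39 and 0.85) and below 0 in the right one (-1.02 and -1.12).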

How the data were processed

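RNA of 4 samples was measured on 4 single-colour arrays. The authors deposited a linear intensity per probe set. It is a GCRMA estimate (version 1.1.3, per the submitters' processing notes). That step adjusts background by probe sequence and normalizes between arrays, so dim probe sets lie near a floor where differences are compressed. Further settings of GCRMA were not stated in those notes.

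Values were converted to log2 with no pseudocount. Of 45101 probe sets, 34945 had 1 symbol and were no control, and 13999 of these had a mean log2 of at least 4 and were tested. Differences were fitted with limma 3.58.1 in R 4.3.3 (lmFit, eBayes with trend, two-sided, 2 residual and 3.06 prior degrees of freedom) with Benjamini-Hochberg adjustment over all tested probe sets and a threshold of 0.05. With 2 arrays per group, the number of arrays limits the precision. The code of the fit was run on simulated, independent arrays with known changes. That run checks the code and is no support for the results here. Tables used Python 3.11.15 and pandas 2.3.3, and plots matplotlib 3.10.9.

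No array equalled another. The genes and lists were chosen with earlier results of these data known. From each list up to 4 tested genes of largest difference were named, each by its probe set of highest mean. Those of Mcm4, Mcm6 and Aurkb carry the suffix _x_at, as does the brightest Cdk4 probe set, so they may cross-hybridise. The list medians also include such probe sets. Marker lists were read as summed linear intensities. Alternatives covered normalization, filter, floor, offset, gene-level testing, the variance prior, pairing and leaving out arrays. Promoters were taken from RefSeq by symbol. The array annotation used here gives no probe positions.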

Additional observations from a re-analysis of the deposited data

How the results depend on the processing

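Over 14 alternatives, 0 probe sets of the cyclin D module and 0 of all probe sets passed an adjusted p of 0.05 in limma. Of 255 recomputed differences 248 kept their direction, and 14 of 19 probe sets kept it under every alternative run. Alternatives of the filter, gene-level testing, the variance prior and pairing leave a difference unchanged by construction, so they could not turn one. The 7 that turned did so with 1 array left out. Of 19 differences, 1 turned without Foxp3delta replicate 1 and 2 without Foxp3delta replicate 2. Without Foxp3+ replicate 1 it was 1, and without Foxp3+ replicate 2 it was 3. With 1 array left out, Ccnd2 1434745_at ran from -0.35 to 0.034 (above 0 without Foxp3+ replicate 1), Ccnd3 1415907_at from -0.024 (without Foxp3+ replicate 2) to 1.06, and Ccnd3 1438805_at from -0.031 (without Foxp3delta replicate 1) to 0.69. Cdk6 1455287_at ran from -0.16 to 0.53 and Cdkn1b 1434045_at from -0.37 to 0.17, and both turned without Foxp3delta replicate 2 and without Foxp3+ replicate 2. Probe sets at least 1 higher with no overlap, 3 with all arrays, numbered 1 to 5 with 1 array left out, the 1 being Cdk6 1435338_at without Foxp3delta replicate 1. Those at least 1 lower numbered 0 to 1. Where a group keeps 1 array, no overlap asks only that 1 value lie outside the other pair, an easier condition than with all arrays. The shares over all tested probe sets are given for all 4 arrays only, so these counts cannot be read against them. With 1 probe set per gene the higher count was 0, since 9 probe sets were tested and neither Cdk6 1435338_at nor the 2 Ccnd2 probe sets were the brightest of their gene.

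Replicate numbers recur in both groups, and the labels do not say whether they mark pairs. The deviations of same-numbered arrays from their group means had r = -0.27 across the tested probe sets, which cannot settle this. The main fit did not pair them. With the replicate block, 0 probe sets passed and 928 of 13999 were under an unadjusted 0.05, against 1338 without it. The crossed pairing, chosen after seeing the data, gave 0 and 1952. Depth of signal limits Ccnd1, whose probe sets lay at the floor.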
